A study of Mus musculus with 9 samples.

Results

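The genes described here are 7 cyclins (Ccnd1, Ccnd2, Ccnd3, Ccne1, Ccne2, Ccna2 and Ccnb1) and 3 inhibitors of cyclin-dependent kinases (Cdkn1a, Cdkn1b and Cdkn2a). A region of open chromatin was taken as a member when it lay in the RefSeq span of one of these genes, or within 50 kb of it with that gene as the nearest protein-coding gene. This gave 99 of the 157497 counted regions, of which 50 lay in a gene's span and 49 outside it. All 99 passed the filter on low counts. The counts per gene ran from 1 region at Ccna2 to 28 at Ccnd3.

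The regions come from ATAC-seq, which reads out accessibility as the number of fragments a transposase cuts from each stretch of open chromatin. There were 3 libraries for each of 3 groups of mouse embryonic stem cells. Labels of the NanogKO:Esrrb:Nanog cells give Esrrb and Nanog over a Nanog knockout, those of the NanogKO:Esrrb cells give Esrrb over the knockout, and those of the NanogKO cells give the knockout alone. How Esrrb and Nanog were supplied, and at what level, is not stated in the labels. The titles give 1 line for each group, 44JN, 44J and 44C6, whereas the cell line field has 1 shared name for NanogKO:Esrrb:Nanog and NanogKO:Esrrb and another for NanogKO. Any difference between groups is thus also one between lines named differently in the titles. For a difference from NanogKO the names differ in the cell line field too. Every group grew with 10% fetal bovine serum and LIF at 1000 U/ml, received no treatment, and was sorted as positive for PECAM, a surface protein of undifferentiated stem cells, and negative for PDGFRA, which marks primitive endoderm. Both added genes encode transcription factors that maintain pluripotency.

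Cyclins are the regulatory subunits that switch on cyclin-dependent kinases. D-type cyclins work with CDK4 and CDK6 and E-type cyclins with CDK2 to inactivate the retinoblastoma proteins and release E2F factors, which carries a cell out of G1, whereas cyclin A acts in S phase and cyclin B at entry into mitosis. The inhibitors bind the kinases or their cyclins and hold the cycle back, and mouse embryonic stem cells are known for a short G1 phase.

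Sequences just before a start site are shown for the starts whose region was called in a comparison below, at Ccnd3, Ccne1, Ccnb1, Cdkn1a and Cdkn2a, and for the second starts of these genes, where the region was not called. RefSeq promoters on GRCm38.p6 were at hand for 6 of the 10 genes, 9 starts in all, and not for Ccnd1, Ccnd2, Ccne2 and Ccna2. Each line has the 250 bases before a start on the gene's own strand, with capitals where a searched motif lies. Both strands were searched for AAGGTCA (the core site of ESRRB) and its longer form TCAAGGTCA. They were also searched for the cell cycle homology region (TTTGAA or else TTCGAA), for CCAAT, for the TATA box TATAAA, and for E2F sites (the form TTTCCCGC, the form TTTGGCGC, the form TTTGCCGC or the form TTTCGCGC). AAGGTCA is contained in TCAAGGTCA, and no other motif overlaps another by design.
Ccnd3, outer start (chr17:47504801-47505050, plus strand): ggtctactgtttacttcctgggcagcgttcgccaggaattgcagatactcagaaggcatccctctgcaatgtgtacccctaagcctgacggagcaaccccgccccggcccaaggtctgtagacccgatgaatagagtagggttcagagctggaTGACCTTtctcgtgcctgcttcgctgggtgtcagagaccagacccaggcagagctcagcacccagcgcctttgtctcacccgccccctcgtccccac
Ccnd3, inner start (chr17:47593217-47593466, plus strand): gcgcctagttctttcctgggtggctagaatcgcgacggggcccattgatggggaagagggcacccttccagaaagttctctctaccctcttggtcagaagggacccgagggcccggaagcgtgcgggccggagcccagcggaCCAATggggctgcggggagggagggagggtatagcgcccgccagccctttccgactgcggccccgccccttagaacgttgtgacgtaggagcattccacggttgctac
Ccne1 (chr7:38107491-38107740, minus strand): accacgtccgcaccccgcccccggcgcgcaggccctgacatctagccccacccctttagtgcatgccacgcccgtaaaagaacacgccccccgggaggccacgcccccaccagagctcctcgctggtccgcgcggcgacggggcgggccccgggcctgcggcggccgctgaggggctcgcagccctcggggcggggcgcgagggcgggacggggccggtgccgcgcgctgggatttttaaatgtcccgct
Ccnb1 (chr13:100786487-100786736, minus strand): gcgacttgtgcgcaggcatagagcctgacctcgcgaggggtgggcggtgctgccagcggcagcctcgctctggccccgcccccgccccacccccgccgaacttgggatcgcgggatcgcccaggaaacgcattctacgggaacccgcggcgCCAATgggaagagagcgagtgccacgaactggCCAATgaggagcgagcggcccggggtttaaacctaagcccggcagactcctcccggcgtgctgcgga
Cdkn1a, outer start (chr17:29090729-29090978, plus strand): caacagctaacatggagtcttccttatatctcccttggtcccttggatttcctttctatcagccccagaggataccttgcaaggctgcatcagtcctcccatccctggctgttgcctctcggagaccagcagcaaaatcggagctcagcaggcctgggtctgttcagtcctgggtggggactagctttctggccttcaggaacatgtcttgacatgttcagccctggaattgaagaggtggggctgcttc
Cdkn1a, inner start (chr17:29093519-29093768, plus strand): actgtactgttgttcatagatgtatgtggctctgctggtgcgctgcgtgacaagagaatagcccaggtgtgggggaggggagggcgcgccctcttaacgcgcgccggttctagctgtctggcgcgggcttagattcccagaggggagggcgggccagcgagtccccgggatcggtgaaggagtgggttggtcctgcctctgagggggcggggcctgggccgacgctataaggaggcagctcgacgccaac
Cdkn2a, inner start (chr4:89282193-89282442, minus strand): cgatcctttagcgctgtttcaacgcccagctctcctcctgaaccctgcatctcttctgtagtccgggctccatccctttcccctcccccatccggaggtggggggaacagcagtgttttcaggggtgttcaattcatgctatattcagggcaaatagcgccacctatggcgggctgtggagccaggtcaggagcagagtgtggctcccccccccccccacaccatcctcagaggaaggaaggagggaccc
Cdkn2a, outer start (chr4:89294620-89294869, minus strand): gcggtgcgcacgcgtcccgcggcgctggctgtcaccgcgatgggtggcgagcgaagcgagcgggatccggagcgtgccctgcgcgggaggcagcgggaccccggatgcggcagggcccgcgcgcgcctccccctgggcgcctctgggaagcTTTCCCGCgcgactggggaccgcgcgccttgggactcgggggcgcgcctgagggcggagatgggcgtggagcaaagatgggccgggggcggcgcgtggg

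The capitals at the outer start of Ccnd3 mark AAGGTCA on the opposite strand, 97 to 91 bases before the start. This core site is in 4.08% of all 32851 promoters of the table. The capitals at the inner start of Ccnd3 mark CCAAT, 108 to 104 bases before it, and those at Ccnb1 mark 2 copies of CCAAT, 99 to 95 and 67 to 63 bases before the start. CCAAT is in 33.8% of all promoters. The capitals at the outer start of Cdkn2a mark the E2F form TTTCCCGC, 99 to 92 bases before the start, and an E2F form is in 1.86% of all promoters. The promoter of Cdkn1b, not printed, held 2 copies of CCAAT. The windows of Ccne1, of the inner start of Cdkn2a and of both Cdkn1a starts held none of the searched letters, and a window without them says nothing of the factors.

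Library totals were 35545030 to 58520948 reads in regions for NanogKO:Esrrb:Nanog, 49870948 to 58096403 for NanogKO:Esrrb and 41334847 to 52871542 for NanogKO. Values per region are CPM, read counts scaled to a common library size with TMM factors, and a log2 fold change is given with its standard error. The threshold for calling a region was 0.05, on p adjusted by Benjamini and Hochberg's method over all regions in edgeR's quasi-likelihood test, and all adjusted p below come from that test unless another is named. On the first 2 principal components, with 63.6% and 15.5% of the variance, replicate 3 of NanogKO:Esrrb:Nanog stood apart on the second, at 5.5 against 87.6 and 101.4 for the other replicates of its group. Regions at Nanog summed to 114.7 to 137.9 CPM in NanogKO:Esrrb:Nanog, 132.8 to 141.7 CPM in NanogKO:Esrrb, against 103.6 to 105.7 CPM in NanogKO, and those at Esrrb to 377.0 to 427.1 CPM in NanogKO:Esrrb:Nanog, 262.1 to 294.2 CPM in NanogKO:Esrrb, against 172.8 to 207.2 CPM in NanogKO. The deleted part of Nanog is not given in the labels, so these sums do not check the genotypes. Regions of 8 marker genes of embryonic stem cells summed to 1249.3 to 1314.9 CPM in NanogKO:Esrrb:Nanog, 1031.7 to 1119.6 CPM in NanogKO:Esrrb, against 816.8 to 866.1 CPM in NanogKO. Among these 115 regions, the comparison of NanogKO:Esrrb with NanogKO called 62 higher and 8 lower (53.9% and 6.96%, beside 20% and 17% of all regions). That of NanogKO:Esrrb:Nanog with NanogKO called 67 and 9 (58.3% and 7.83%, beside 24.9% and 24.4%). Primitive endoderm markers summed to 493.1 to 512.4 CPM in NanogKO:Esrrb:Nanog, 459.0 to 495.9 CPM in NanogKO:Esrrb, against 515.2 to 548.5 CPM in NanogKO. Of their 78 regions the same comparisons called 11 higher and 13 lower (14.1% and 16.7%), and 14 and 19 (17.9% and 24.4%). Their shares lower were thus near those of all regions. Fibroblast markers summed to 170.3 to 178.4 CPM in NanogKO:Esrrb:Nanog, 156.9 to 160.7 CPM in NanogKO:Esrrb, against 176.8 to 189.5 CPM in NanogKO, with 5 higher and 13 lower of 52 regions, and 7 and 16. Markers of endothelium and blood summed to 256.7 to 272.3 CPM in NanogKO:Esrrb:Nanog, 248.7 to 258.3 CPM in NanogKO:Esrrb, against 241.8 to 256.1 CPM in NanogKO. Of their 59 regions 10 were higher and 10 lower (16.9% and 16.9%), and 11 and 19 (18.6% and 32.2%). The higher total in NanogKO:Esrrb:Nanog thus stood beside more lower than higher regions. Every marker gene had at least 1 region with reads. The part of these shifts in the results below was not tested, and in bulk cells a region open in fewer cells cannot be told apart from one less open in each cell. Nothing in the labels says that replicates were separate cultures, so the spread behind each p-value is that between libraries and could be technical.

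Around the cell cycle genes, more regions were called higher than lower in each of the 3 comparisons, and Ccnd3 held more of the higher ones than any other gene in each. In NanogKO:Esrrb compared with NanogKO, 25 of the 99 regions were higher (25.3%, beside 20% of all tested regions) and 12 were lower (12.1%, beside 17%), and the median log2 fold change came to 0.11, beside -0.01 over all regions. In NanogKO:Esrrb:Nanog compared with NanogKO, 35 were higher (35.4%, beside 24.9%) and 13 lower (13.1%, beside 24.4%), with a median of 0.24 beside -0.01. Between NanogKO:Esrrb:Nanog and NanogKO:Esrrb, 18 were higher (18.2%, beside 12.6%) and 7 lower (7.07%, beside 12%), with a median of 0.10 beside -0.01. The comparisons share libraries, so they are not independent of each other. Ccnd3 alone held 28 of the regions. Without it, 12 regions were higher and 11 lower of 71 in NanogKO:Esrrb compared with NanogKO, 22 and 11 in NanogKO:Esrrb:Nanog compared with NanogKO, and 11 and 4 in NanogKO:Esrrb:Nanog compared with NanogKO:Esrrb. The shares higher were then 16.9%, 31.0% and 15.5%.

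Regions called with a change beyond 2-fold comprised 8 higher and 1 lower in NanogKO:Esrrb compared with NanogKO (8.08% and 1.01%, beside 8.37% and 6.01% of all regions), and 13 and 3 in NanogKO:Esrrb:Nanog compared with NanogKO (13.1% and 3.03%, beside 11.3% and 11%). Between NanogKO:Esrrb:Nanog and NanogKO:Esrrb there were 0 and 2 (beside 1.89% and 3.63%). Altogether 40 of the 99 regions were called in no comparison, and the share of all regions called in none was not computed, so this count has no background. Comparing NanogKO:Esrrb:Nanog with NanogKO, 21 of the 50 regions in spans were higher and 3 lower, and 14 of the 49 outside were higher and 10 lower. Over all regions, in spans or not, 24.9% were higher and 24.4% lower. Shares of all regions in and outside spans were not computed, so the split is not shown to be particular to these genes. The median log2 fold changes were 0.34 in spans and 0.06 outside, and the difference between these groups of regions was not tested. Ccnd3 alone held 26 of the 50 regions in spans and 13 of the 21 higher ones, so 1 gene weighs heavily in that split. Leaving out replicate 3 of NanogKO:Esrrb:Nanog gave 29 higher and 12 lower between NanogKO:Esrrb:Nanog and NanogKO:Esrrb, where leaving out its replicate 2 gave 4 lower. In NanogKO:Esrrb compared with NanogKO, leaving out NanogKO:Esrrb replicate 1 or NanogKO replicate 2 gave 6 lower in place of 12. Scaling by library totals alone put the median of all regions at -0.10 in NanogKO:Esrrb:Nanog compared with NanogKO and at -0.11 compared with NanogKO:Esrrb. In the comparison with NanogKO:Esrrb it gave 12765 higher and 25391 lower among all regions, beside 19777 and 18935 with TMM, and 13 higher and 12 lower among the regions of the cell cycle genes, so that the excess of higher regions in that comparison depends on the scaling.

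**Figure D1:**
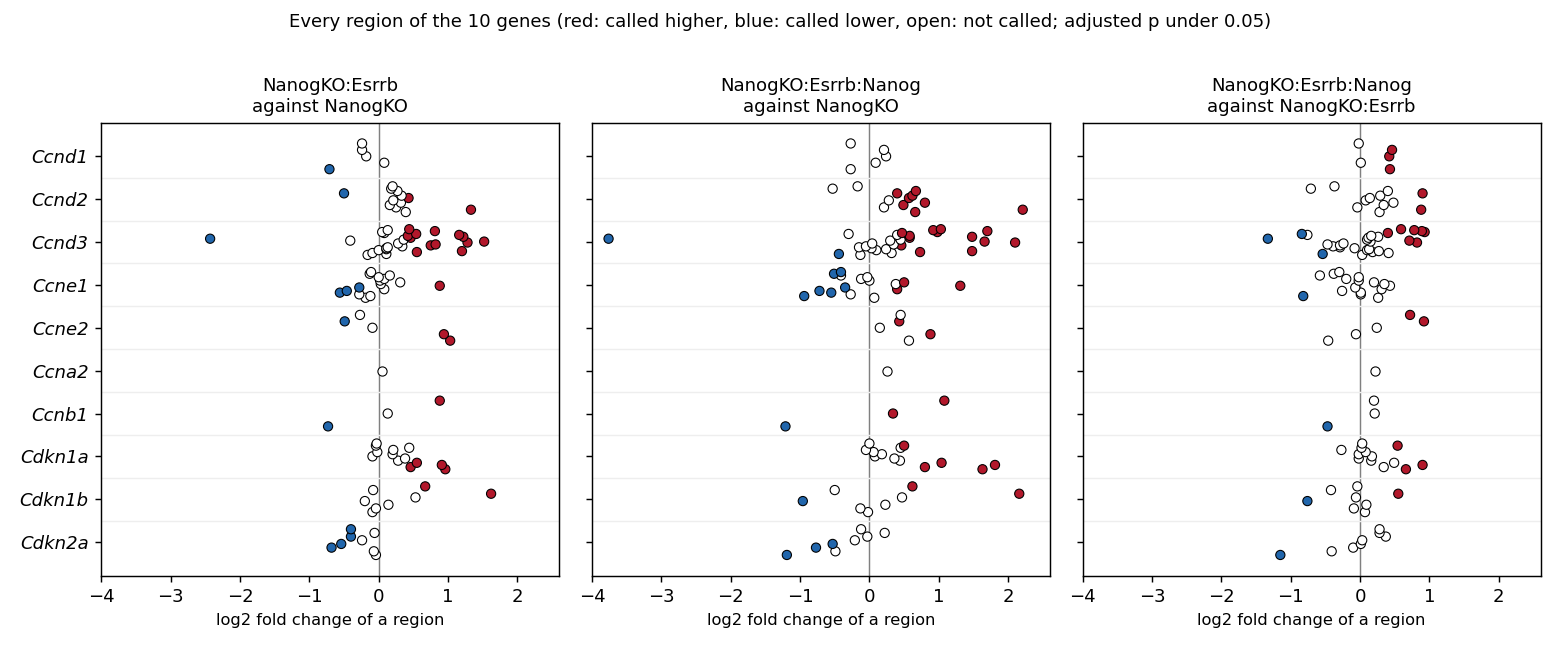
Log2 fold change of each of the 99 regions (horizontal axis) by gene (rows) in the 3 comparisons (panels); a red point was called higher, a blue point lower and an open point was not called at an adjusted p under 0.05. Most points of Ccnd2, Ccnd3 and Cdkn1a lie to the right in both comparisons with NanogKO, and the called points of Cdkn2a all lie to the left.

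Summing the reads of all regions of a gene gave 1 value per gene and library. These sums are CPM relative to the reads assigned to genes, so they are on another scale than the CPM of single regions. In NanogKO:Esrrb compared with NanogKO, 2 of the 10 sums were higher and 1 was lower, beside 17.2% and 16.5% of 19083 gene sums. In NanogKO:Esrrb:Nanog compared with NanogKO 4 were higher and 0 lower, beside 23.9% and 23.9%, and in NanogKO:Esrrb:Nanog compared with NanogKO:Esrrb 1 was higher and 0 lower, beside 10.4% and 10%. Replicate number was also taken as a block in a fit of all 9 libraries, a pairing read from the libraries' own deviations and not from the labels. It called 5 sums in NanogKO:Esrrb compared with NanogKO and 3 in NanogKO:Esrrb:Nanog compared with NanogKO:Esrrb. The higher ones against NanogKO were Ccnd2 and Ccnd3 in both groups, joined by Ccna2 and Cdkn1a in NanogKO:Esrrb:Nanog, and the lower one was Cdkn2a in NanogKO:Esrrb. Ccnd2 alone was called higher in NanogKO:Esrrb:Nanog compared with NanogKO:Esrrb, where 7 other sums had a log2 fold change above 0 without passing the test, among them Cdkn1a at 0.18 ± 0.08 (adjusted p = 0.12) and Ccne2 at 0.20 ± 0.07 (adjusted p = 0.052).

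**Figure D2:**
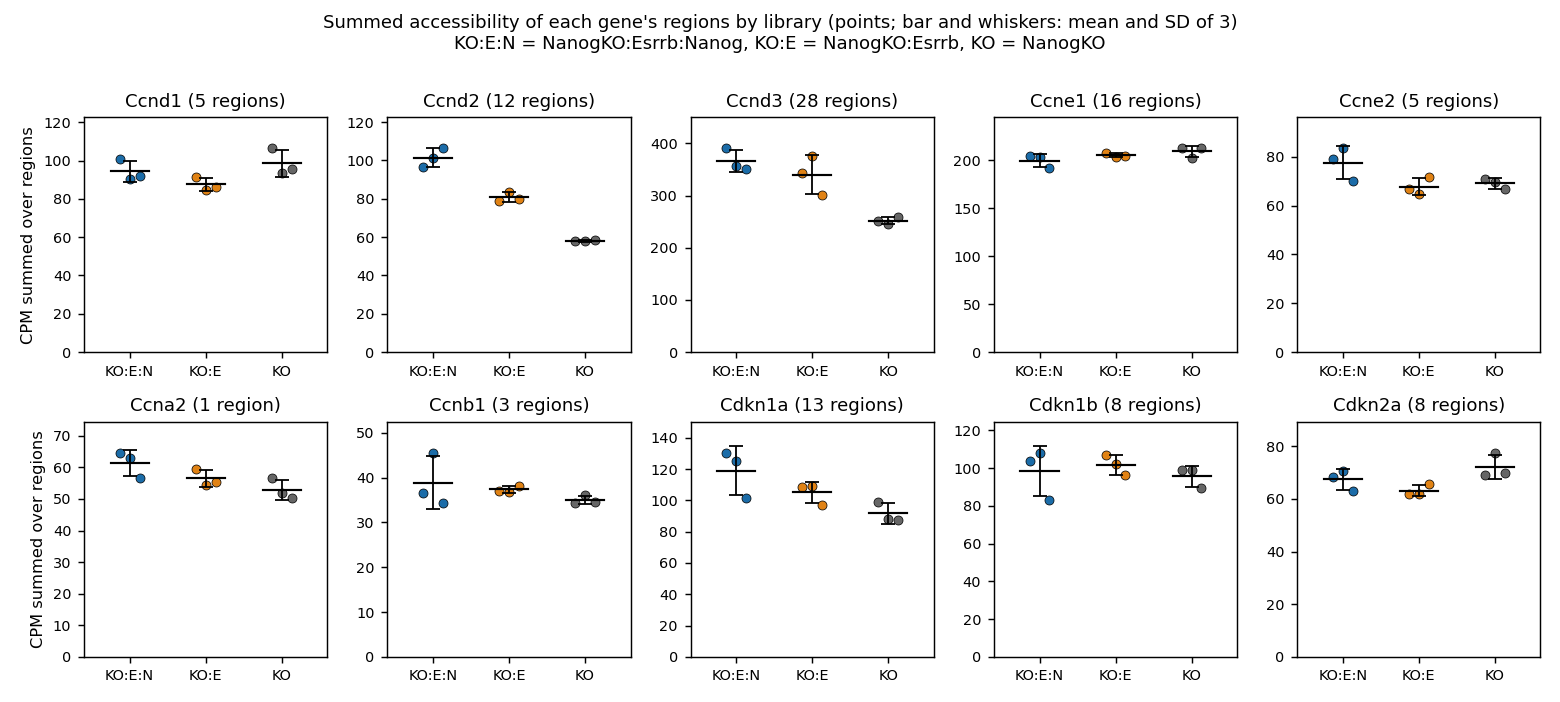
Summed accessibility of each gene's regions in CPM (vertical axes from 0) for NanogKO:Esrrb:Nanog, NanogKO:Esrrb and NanogKO, with 1 point per library and the mean and SD of 3 libraries as bar and whiskers. At Ccnd2 the 3 groups do not overlap, and at Ccnd3 both groups with Esrrb lie above the NanogKO libraries.

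Per kilobase of region, the mean level was highest at Ccna2, with 51.1 CPM per kb in NanogKO:Esrrb:Nanog, 47.1 in NanogKO:Esrrb and 44.0 in NanogKO. It was lowest at Cdkn2a in NanogKO:Esrrb:Nanog and NanogKO:Esrrb, with 14.1 and 13.2 CPM per kb, and lowest at Ccnd2 in NanogKO, with 11.3. Ccnd2 moved up this order, to 19.9 CPM per kb in NanogKO:Esrrb:Nanog and 15.8 in NanogKO:Esrrb. The other genes had 17.7 to 30.0 CPM per kb in every group, except Cdkn2a at 15.1 in NanogKO. These levels depend on which stretches were counted as regions, and Ccna2 has a single one.

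Ccnd2, which encodes a D-type cyclin, had the sum of smallest adjusted p of the 10 genes in all 3 comparisons. Its 12 regions (gene at chr6:127125162-127152188) summed to 96.8, 101.2 and 106.5 CPM in NanogKO:Esrrb:Nanog, 79.1, 83.7 and 79.8 CPM in NanogKO:Esrrb, against 57.7, 57.8 and 58.4 CPM in NanogKO. The 3 groups do not overlap. The log2 fold change of the sum was 0.48 ± 0.06 in NanogKO:Esrrb compared with NanogKO (adjusted p = 5.3e-06), 0.81 ± 0.06 in NanogKO:Esrrb:Nanog compared with NanogKO (5.6e-09) and 0.33 ± 0.06 in NanogKO:Esrrb:Nanog compared with NanogKO:Esrrb (0.0013).

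A single region within the Ccnd2 span (chr6:127130299-127130961) was both the most accessible of the 12 and the one of smallest p in all 3 comparisons. It had 36.5, 35.8 and 41.9 CPM in NanogKO:Esrrb:Nanog, 20.1, 22.4 and 19.5 CPM in NanogKO:Esrrb, against 8.85, 7.46 and 8.35 CPM in NanogKO. Its lowest NanogKO:Esrrb:Nanog library was above every NanogKO:Esrrb library, and these were all above the NanogKO libraries. The log2 fold change came to 1.33 ± 0.12 in NanogKO:Esrrb compared with NanogKO (adjusted p = 2.2e-09), 2.21 ± 0.12 in NanogKO:Esrrb:Nanog compared with NanogKO (1.4e-13) and 0.88 ± 0.11 in NanogKO:Esrrb:Nanog compared with NanogKO:Esrrb (6.4e-06).

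Change at Ccnd2 was not limited to that region. In NanogKO:Esrrb:Nanog compared with NanogKO, 8 of the 12 regions were higher and 0 lower (beside 24.9% and 24.4% of all regions). In NanogKO:Esrrb compared with NanogKO 2 were higher and 1 lower (beside 20% and 17%). The region nearest the lower-coordinate end of the span (chr6:127122396-127122892, 2270 bp outside) had 6.39, 5.43 and 6.67 CPM in NanogKO:Esrrb:Nanog, 4.93, 5.01 and 5.38 CPM in NanogKO:Esrrb, against 3.68, 4.46 and 3.55 CPM in NanogKO. It was higher in NanogKO:Esrrb:Nanog than in NanogKO (0.66 ± 0.16, adjusted p = 0.00089), whereas NanogKO:Esrrb differed from NanogKO by 0.39 ± 0.16 (adjusted p = 0.052, or 0.046 with the replicate block and 0.036 without NanogKO replicate 2). The region nearest the other end (chr6:127151574-127151880) was higher by 0.57 ± 0.17 in NanogKO:Esrrb:Nanog compared with NanogKO (adjusted p = 0.0063). Its call in NanogKO:Esrrb compared with NanogKO (0.43 ± 0.17, adjusted p = 0.045) was lost on leaving out any one of the 3 NanogKO:Esrrb replicates or NanogKO replicate 1 or 2, with adjusted p of 0.069 to 0.20, and under library totals (0.052). The 2 regions farthest out, at 25794 and 28949 bp from the span, were called in no comparison.

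One small region beside Ccnd2 (chr6:127153526-127153693, 1338 bp outside the span), named after its values were seen, differed between the steps. It had 4.46, 5.49 and 4.36 CPM in NanogKO:Esrrb:Nanog, 2.52, 2.66 and 2.44 CPM in NanogKO:Esrrb, against 3.73, 3.53 and 3.55 CPM in NanogKO. The NanogKO:Esrrb libraries were thus the lowest, and NanogKO:Esrrb:Nanog exceeded NanogKO:Esrrb by 0.90 ± 0.17 (adjusted p = 0.00042). Its difference of -0.50 ± 0.17 between NanogKO:Esrrb and NanogKO (adjusted p = 0.021) had an adjusted p of 0.061 to 0.064 without NanogKO:Esrrb replicate 1, NanogKO:Esrrb replicate 3 or NanogKO replicate 1. The difference of 0.40 ± 0.17 between NanogKO:Esrrb:Nanog and NanogKO (adjusted p = 0.047) was lost without any one of NanogKO:Esrrb:Nanog replicates 1 and 2 and the 3 NanogKO replicates, at 0.054 to 0.19, and under library totals (0.14).

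Ccnd3, another D-type cyclin, has the longest span of the set (94639 bp, chr17:47505051-47599689), and 26 of its 28 regions lie in it. Its regions summed to 391.2, 356.7 and 351.5 CPM in NanogKO:Esrrb:Nanog, 343.1, 375.8 and 301.6 CPM in NanogKO:Esrrb, against 250.7, 246.0 and 258.6 CPM in NanogKO. Both groups with Esrrb lay above NanogKO and overlapped each other. The sum was higher by 0.43 ± 0.07 in NanogKO:Esrrb (adjusted p = 8.6e-05) and by 0.54 ± 0.07 for NanogKO:Esrrb:Nanog (4e-06), each compared with NanogKO, and NanogKO:Esrrb:Nanog differed from NanogKO:Esrrb by 0.11 ± 0.07 (0.28).

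At the level of regions, 13 of 28 at Ccnd3 were higher and 1 lower in NanogKO:Esrrb compared with NanogKO (beside 20% and 17% of all regions). Further, 13 were higher and 2 lower in NanogKO:Esrrb:Nanog than in NanogKO (beside 24.9% and 24.4%), and 7 were higher and 3 lower than in NanogKO:Esrrb (beside 12.6% and 12%). The most accessible (chr17:47511102-47512021, in the span) had 120.7, 80.3 and 83.3 CPM in NanogKO:Esrrb:Nanog, 92.4, 82.1 and 76.3 CPM in NanogKO:Esrrb, against 61.8, 51.3 and 58.1 CPM in NanogKO. It was higher in NanogKO:Esrrb (0.55 ± 0.13, adjusted p = 0.0018) as well as in NanogKO:Esrrb:Nanog (0.73 ± 0.13, 5.2e-05) than in NanogKO, and the groups with Esrrb overlapped. In NanogKO:Esrrb compared with NanogKO, leaving out single libraries lost the higher calls starting at chr17:47565810, 47571346, 47582912, 47585901 and 47597953 (adjusted p = 0.054 to 0.16). In NanogKO:Esrrb:Nanog compared with NanogKO it lost that at 47531400 (0.069) and the lower call at 47504381 (0.067 to 0.17). The latter was also lost with DESeq2's Wald test (0.052). Between the groups with Esrrb it lost the higher call at 47550645 (0.05 to 0.059) and the lower at 47504381 (0.053 to 0.19).

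The Ccnd3 regions of smallest p in the comparisons with NanogKO are neighbours. The one of smallest p for NanogKO:Esrrb:Nanog (chr17:47541859-47542367) had 12.0, 11.9 and 9.34 CPM in NanogKO:Esrrb:Nanog, 6.14, 7.30 and 5.38 CPM in NanogKO:Esrrb, against 2.15, 3.07 and 2.49 CPM in NanogKO, with no overlap between any of the groups. Its log2 fold change came to 1.28 ± 0.17 in NanogKO:Esrrb compared with NanogKO (adjusted p = 1e-06), 2.10 ± 0.17 in NanogKO:Esrrb:Nanog compared with NanogKO (9.3e-11) and 0.82 ± 0.16 in NanogKO:Esrrb:Nanog compared with NanogKO:Esrrb (0.00054). The one of smallest p for NanogKO:Esrrb (chr17:47542521-47543200) had 6.90, 8.42 and 6.24 CPM in NanogKO:Esrrb:Nanog, 6.30, 6.90 and 6.19 CPM in NanogKO:Esrrb, against 2.07, 1.82 and 2.88 CPM in NanogKO. Here the groups with Esrrb overlapped and both lay above NanogKO, by 1.52 ± 0.18 in NanogKO:Esrrb (1.4e-07) and 1.66 ± 0.18 for NanogKO:Esrrb:Nanog (1.4e-08), and NanogKO:Esrrb:Nanog compared with NanogKO:Esrrb gave 0.15 ± 0.16 (0.54).

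The 2 starts of Ccnd3 behaved differently from these. The region over the outer start, which covers 182 bases of the window printed above (chr17:47504869-47505207), had 9.04, 8.45 and 5.91 CPM in NanogKO:Esrrb:Nanog, 5.76, 7.13 and 4.65 CPM in NanogKO:Esrrb, against 6.49, 6.67 and 5.55 CPM in NanogKO. All pairs of groups overlapped, and the region was called in no comparison. Its difference of 0.41 ± 0.17 between NanogKO:Esrrb:Nanog and NanogKO:Esrrb had an adjusted p of 0.077, and of 0.026 with the replicate block, 0.026 without NanogKO:Esrrb replicate 2 and 0.0073 without NanogKO:Esrrb:Nanog replicate 3. Without that library it was also higher in NanogKO:Esrrb:Nanog than in NanogKO (0.49, adjusted p = 0.013).

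Over the inner start of Ccnd3 (chr17:47593129-47594087), NanogKO:Esrrb:Nanog had 23.1, 25.8 and 16.1 CPM, NanogKO:Esrrb 17.1, 17.0 and 15.1 CPM, and NanogKO 14.9, 16.2 and 15.6 CPM. Replicate 3 of NanogKO:Esrrb:Nanog lay within the range of the other groups. The region was called higher in NanogKO:Esrrb:Nanog than in NanogKO (0.47 ± 0.14, adjusted p = 0.0053, or 0.063 without NanogKO:Esrrb:Nanog replicate 2) and than in NanogKO:Esrrb (0.40 ± 0.14, adjusted p = 0.033). The call against NanogKO:Esrrb was lost on leaving out any one of NanogKO:Esrrb:Nanog replicates 1 and 2 and the 3 NanogKO:Esrrb replicates, with adjusted p of 0.055 to 0.22, and under library totals (0.094). The NanogKO:Esrrb libraries differed from NanogKO by 0.08 ± 0.14 (0.70).

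From that inner start to the higher-coordinate end of the span lie 5 regions, a run picked out after its values were seen, and all 5 were called higher in NanogKO:Esrrb:Nanog than in NanogKO:Esrrb. They are 5 of the 7 Ccnd3 regions so called, with log2 fold changes of 0.40 to 0.93. The region of smallest p in that comparison (chr17:47595364-47595733) had 14.4, 12.1 and 12.4 CPM in NanogKO:Esrrb:Nanog, 7.57, 7.64 and 5.79 CPM in NanogKO:Esrrb, against 3.68, 4.59 and 3.69 CPM in NanogKO. Its libraries separate by group, with log2 fold changes of 0.81 ± 0.15 in NanogKO:Esrrb compared with NanogKO (adjusted p = 0.00011), 1.70 ± 0.15 in NanogKO:Esrrb:Nanog compared with NanogKO (5.4e-10) and 0.89 ± 0.14 in NanogKO:Esrrb:Nanog compared with NanogKO:Esrrb (9.1e-05). The region next to it (chr17:47595922-47596308) was higher by 0.78 ± 0.14 in NanogKO:Esrrb:Nanog compared with NanogKO:Esrrb (0.00034), and NanogKO:Esrrb differed from NanogKO by 0.13 ± 0.14 (0.50).

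Against this run stands a region in the middle of the Ccnd3 span (chr17:47555255-47555431), also named after its values were seen, which was nearly closed in the groups with Esrrb. It had 0.0207, 0.176 and 0.259 CPM in NanogKO:Esrrb:Nanog, 0.457, 0.301 and 0.435 CPM in NanogKO:Esrrb, against 1.98, 2.22 and 2.23 CPM in NanogKO. The groups do not overlap, and the log2 fold change came to -2.43 ± 0.32 in NanogKO:Esrrb (adjusted p = 1.1e-06) and -3.76 ± 0.38 for NanogKO:Esrrb:Nanog (6e-09), each compared with NanogKO. These were the largest falls among the 99 regions in those comparisons. The fall of -1.33 ± 0.44 in NanogKO:Esrrb:Nanog compared with NanogKO:Esrrb (adjusted p = 0.03) was lost without NanogKO:Esrrb replicate 1 or 3 (0.086 each) and without NanogKO:Esrrb:Nanog replicate 1 (0.16) or 2 (0.058), and with the 2 groups alone (0.055).

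**Figure D3:**
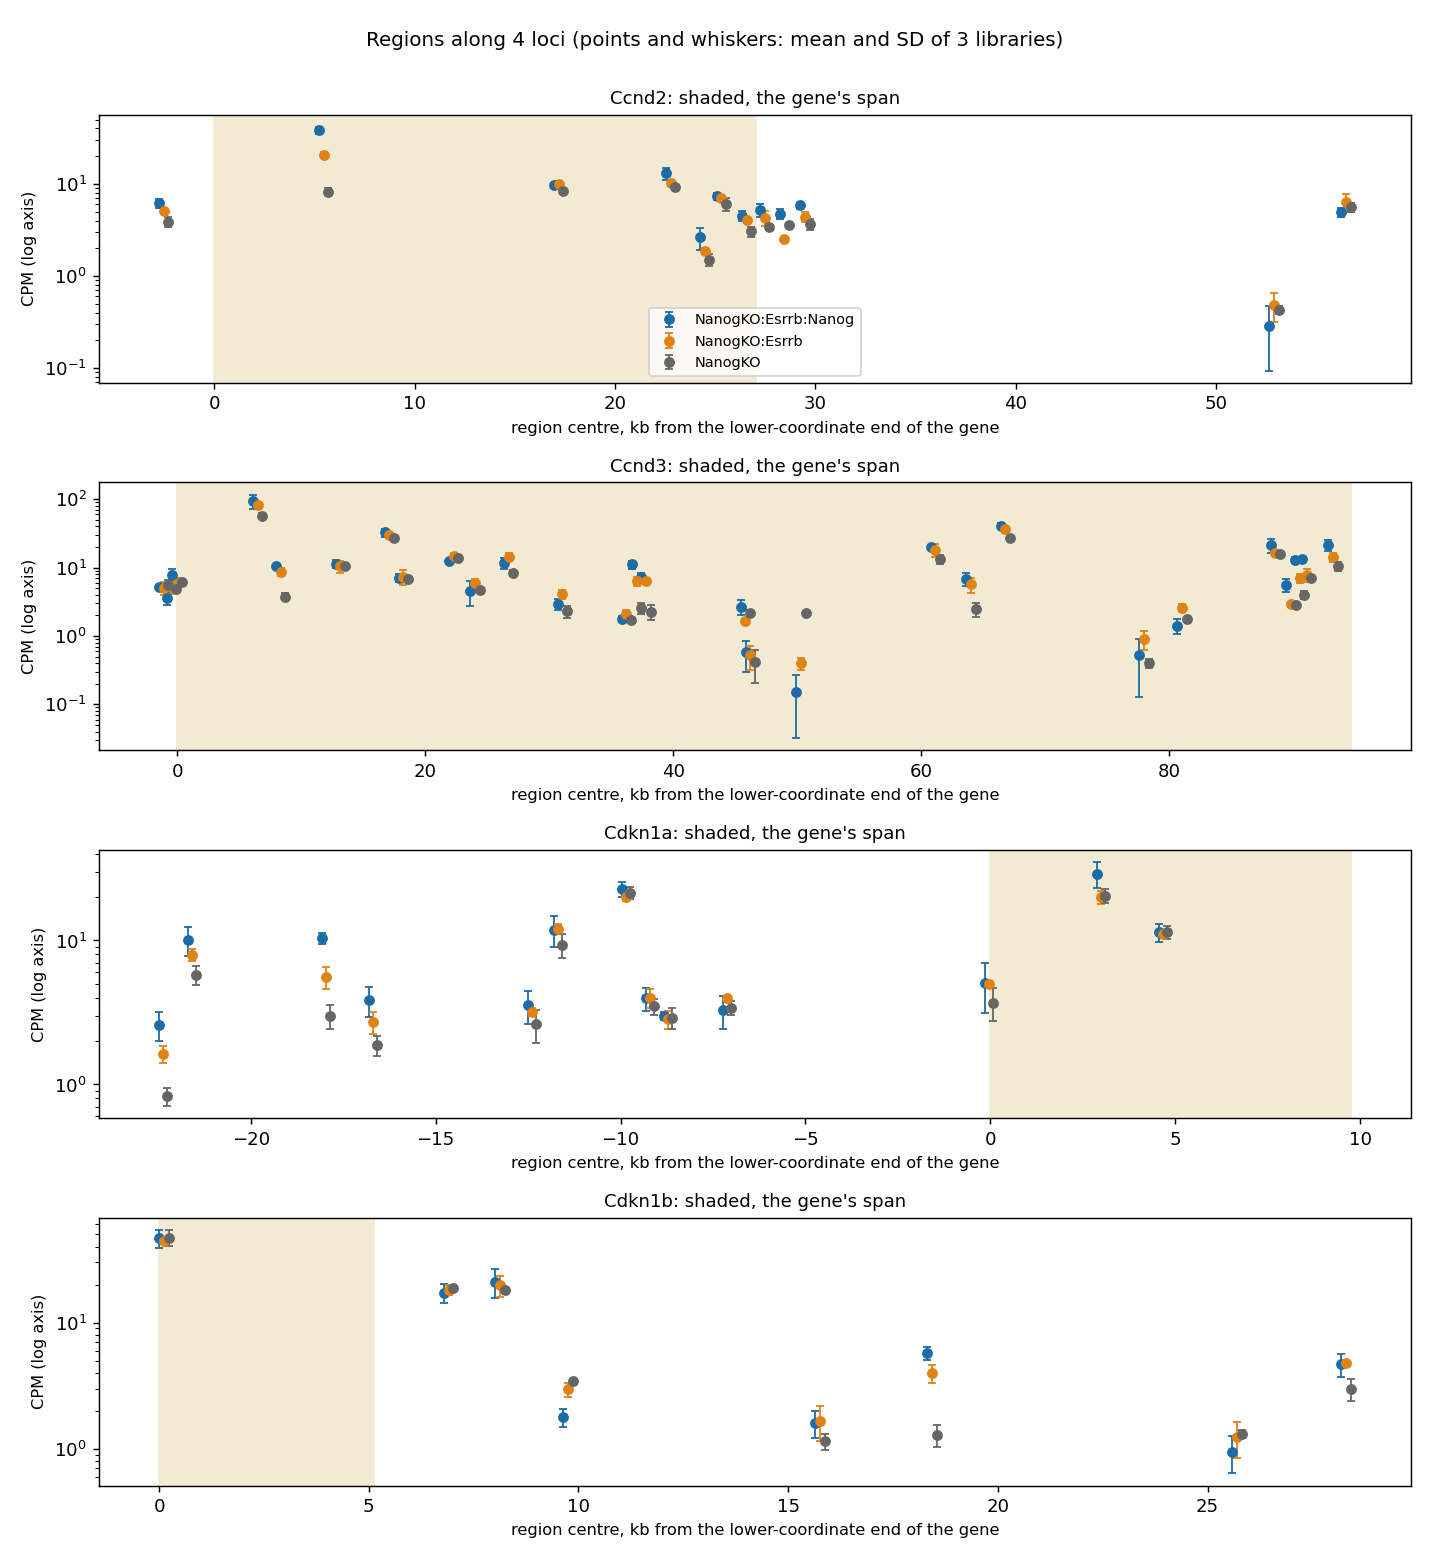
Mean CPM with SD of 3 libraries (vertical log axes) for each region along Ccnd2, Ccnd3, Cdkn1a and Cdkn1b, placed by the distance of its centre from the lower-coordinate end of the gene in kb; NanogKO:Esrrb:Nanog, NanogKO:Esrrb and NanogKO are drawn side by side and the gene's span is shaded. At Ccnd2 and Ccnd3 the widest gaps between groups lie inside the span, and at Cdkn1a and Cdkn1b more than 10 kb outside it.

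Ccnd1, the D-type cyclin best known as a target of mitogen signalling, had a sum called in no comparison. Its 5 regions (gene at chr7:144929931-144939831) summed to 100.7, 90.6 and 91.9 CPM in NanogKO:Esrrb:Nanog, 91.7, 84.9 and 86.1 CPM in NanogKO:Esrrb, against 106.6, 93.5 and 95.6 CPM in NanogKO. The NanogKO:Esrrb libraries all lay below the NanogKO libraries, and NanogKO:Esrrb:Nanog overlapped both. The sum differed by -0.17 ± 0.07 in NanogKO:Esrrb compared with NanogKO (adjusted p = 0.05, not under the threshold), and was called lower there with the replicate block (0.011), without NanogKO replicate 2 (0.047), with the 2 groups alone (0.031) and with library totals (0.02). DESeq2's Wald test called it lower there too (0.047).

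One region in the Ccnd1 span (chr7:144931871-144932098) had 10.3, 10.3 and 9.60 CPM in NanogKO:Esrrb:Nanog, 8.49, 6.77 and 7.19 CPM in NanogKO:Esrrb, against 13.9, 11.5 and 11.2 CPM in NanogKO. It was lower in NanogKO:Esrrb than in NanogKO (-0.71 ± 0.13, adjusted p = 0.00012), and none of the groups overlapped. The region of smallest p in NanogKO:Esrrb:Nanog compared with NanogKO:Esrrb (chr7:144941201-144941817, 1370 bp outside the span) had 23.5, 20.4 and 19.5 CPM in NanogKO:Esrrb:Nanog, 16.7, 14.1 and 15.3 CPM in NanogKO:Esrrb, against 20.5, 16.7 and 17.5 CPM in NanogKO. It was higher by 0.46 ± 0.12 in NanogKO:Esrrb:Nanog compared with NanogKO:Esrrb (0.0075), with NanogKO:Esrrb:Nanog above every NanogKO:Esrrb library and overlapping NanogKO.

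In all, 3 of the 5 Ccnd1 regions were higher in NanogKO:Esrrb:Nanog than in NanogKO:Esrrb and 0 lower (beside 12.6% and 12% of all regions), 1 was lower in NanogKO:Esrrb than in NanogKO (beside 17%), and 0 were called between NanogKO:Esrrb:Nanog and NanogKO. The other 2 of the 3 were the region just described within the span (0.43 ± 0.13, adjusted p = 0.02) and the one at the higher-coordinate end (chr7:144939480-144939880, 0.42 ± 0.13, 0.017). The first lost its call without NanogKO:Esrrb replicate 2 or 3 or NanogKO:Esrrb:Nanog replicate 1 or 2 (0.054 to 0.083), and the second without NanogKO:Esrrb replicate 2 or NanogKO:Esrrb:Nanog replicate 1 or 2 (0.054 to 0.09), and both under library totals (0.061 and 0.055). The second was also higher in NanogKO:Esrrb:Nanog than in NanogKO without NanogKO:Esrrb:Nanog replicate 3 (0.34, 0.024). The most accessible region (chr7:144942401-144943700, 2570 bp outside) had 32.9, 27.6 and 27.1 CPM in NanogKO:Esrrb:Nanog, 30.9, 28.8 and 29.4 CPM in NanogKO:Esrrb, against 40.1, 33.4 and 31.8 CPM in NanogKO. It differed by -0.24 ± 0.12 in NanogKO:Esrrb (0.11) and by -0.27 ± 0.12 for NanogKO:Esrrb:Nanog (0.061), each compared with NanogKO. With the replicate block the first became -0.23 (0.039), and the second was called without NanogKO replicate 3 (-0.33, 0.047) or NanogKO:Esrrb:Nanog replicate 1 (-0.36, 0.016) and under library totals (-0.36, 0.0038).

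Ccne1 encodes cyclin E1, the CDK2 partner that drives entry into S phase, and its gene (chr7:38097984-38107490) holds 1 of its 16 regions. The sum was called in no comparison, at 203.9, 202.9 and 191.9 CPM in NanogKO:Esrrb:Nanog, 207.7, 203.5 and 204.1 CPM in NanogKO:Esrrb, against 212.6, 202.1 and 212.6 CPM in NanogKO. The log2 fold changes of -0.03 ± 0.05 in NanogKO:Esrrb (adjusted p = 0.72) and -0.07 ± 0.05 for NanogKO:Esrrb:Nanog (0.31), each compared with NanogKO, stand over regions called in both directions. In NanogKO:Esrrb:Nanog compared with NanogKO, 3 of the 16 regions were higher and 6 lower (beside 24.9% and 24.4% of all regions). In NanogKO:Esrrb compared with NanogKO 1 was higher and 3 lower (beside 20% and 17%). Each of the 3 lower calls in NanogKO:Esrrb was lost on leaving out some single libraries, while the log2 fold changes stayed negative. That of the region starting at chr7:38085236 was lost without any one of the 6 libraries, that at chr7:38074450 without NanogKO:Esrrb replicate 1 or 3 or NanogKO replicate 1, and that at chr7:38075433 without NanogKO:Esrrb replicate 2 or NanogKO replicate 2 (adjusted p = 0.052 to 0.18). The first and second were lower in NanogKO:Esrrb:Nanog than in NanogKO too, calls lost without NanogKO replicate 1 (0.055 and 0.12) and, for the second, NanogKO:Esrrb:Nanog replicate 3 (0.062).

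The 3 higher ones were the region over the start and regions 3226 and 12850 bp from the span. The call of the last (starting at chr7:38084607) was lost without NanogKO:Esrrb:Nanog replicate 1 (adjusted p = 0.17) or 2 (0.11) or NanogKO replicate 2 (0.15), and under library totals (0.072). The region over the Ccne1 start (chr7:38106781-38108576), the most accessible of the 16, had 48.4, 44.9 and 35.1 CPM in NanogKO:Esrrb:Nanog, 41.5, 33.1 and 37.5 CPM in NanogKO:Esrrb, against 32.4, 28.0 and 30.1 CPM in NanogKO. It was higher in NanogKO:Esrrb:Nanog than in NanogKO (0.50 ± 0.12, adjusted p = 0.0014) without overlap, and NanogKO:Esrrb differed from NanogKO by 0.31 ± 0.12 (0.052, or 0.015 with the replicate block, 0.018 with the 2 groups alone and 0.029 without NanogKO:Esrrb replicate 2). Without NanogKO:Esrrb:Nanog replicate 3 it was also higher in NanogKO:Esrrb:Nanog than in NanogKO:Esrrb (0.33, 0.031). A region 3226 bp from the span (chr7:38094346-38094758) had 3.03, 3.73 and 4.27 CPM in NanogKO:Esrrb:Nanog, 2.56, 2.71 and 2.89 CPM in NanogKO:Esrrb, against 1.10, 1.52 and 1.78 CPM in NanogKO. It was higher by 0.88 ± 0.21 in NanogKO:Esrrb (0.0014) and by 1.31 ± 0.21 for NanogKO:Esrrb:Nanog (7.4e-06), each compared with NanogKO.

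The 6 Ccne1 regions lower in NanogKO:Esrrb:Nanog than in NanogKO lay 11160 to 34306 bp from the span, on both sides. The calls of those starting at chr7:38131010 and chr7:38141796 were lost without NanogKO:Esrrb:Nanog replicate 2 (adjusted p = 0.053 and 0.05). The latter was also lost without NanogKO replicate 1 (0.053). The region of smallest p in NanogKO:Esrrb:Nanog compared with NanogKO:Esrrb (chr7:38067498-38067952, 30032 bp away) had 1.06, 1.35 and 1.64 CPM in NanogKO:Esrrb:Nanog, 2.62, 2.23 and 2.33 CPM in NanogKO:Esrrb, against 2.41, 2.48 and 2.92 CPM in NanogKO. NanogKO:Esrrb:Nanog lay below both other groups, which overlapped, by -0.82 ± 0.21 compared with NanogKO:Esrrb (adjusted p = 0.0067) and -0.94 ± 0.21 compared with NanogKO (0.00062). With regions within 10 kb alone the sum of Ccne1 was higher than in NanogKO, by 0.26 in NanogKO:Esrrb (0.0049) and 0.27 in NanogKO:Esrrb:Nanog (0.0022), so the sign of the sum depends on the distance taken.

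Ccne2 encodes cyclin E2, and 5 regions were assigned to it (gene at chr4:11190433-11204779). They summed to 79.2, 83.6 and 70.2 CPM in NanogKO:Esrrb:Nanog, 67.0, 64.6 and 71.6 CPM in NanogKO:Esrrb, against 71.0, 69.6 and 66.8 CPM in NanogKO. No sum was called: NanogKO:Esrrb:Nanog differed from NanogKO:Esrrb by 0.20 ± 0.07 (adjusted p = 0.052) and from NanogKO by 0.17 ± 0.07 (0.054). With the replicate block both comparisons passed (0.035 with NanogKO:Esrrb and 0.04 with NanogKO). Both also passed with DESeq2's Wald test (0.034 and 0.038) and with its size factors (just under 0.05, and 0.046). Without NanogKO:Esrrb:Nanog replicate 3, the lowest of its group, the differences were 0.27 (0.0051) and 0.24 (0.0051).

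The most accessible Ccne2 region covers the lower-coordinate end of the span (chr4:11190128-11191991) and had 67.1, 70.0 and 55.0 CPM in NanogKO:Esrrb:Nanog, 55.1, 50.1 and 57.6 CPM in NanogKO:Esrrb, against 62.0, 56.4 and 54.6 CPM in NanogKO. The groups overlapped and it was called in no comparison; without NanogKO:Esrrb:Nanog replicate 3 it was higher in NanogKO:Esrrb:Nanog than in NanogKO:Esrrb (0.34, adjusted p = 0.018). A region 6479 bp outside (chr4:11183634-11183954) had 2.61, 1.76 and 2.28 CPM in NanogKO:Esrrb:Nanog, 2.29, 2.46 and 2.24 CPM in NanogKO:Esrrb, against 1.24, 1.30 and 1.09 CPM in NanogKO. Both groups with Esrrb lay above NanogKO, by 0.94 ± 0.21 in NanogKO:Esrrb (0.00097) and 0.88 ± 0.22 for NanogKO:Esrrb:Nanog (0.0014), and overlapped each other.

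Inside the Ccne2 span a short region (chr4:11192269-11192404) had 8.15, 8.98 and 5.93 CPM in NanogKO:Esrrb:Nanog, 3.62, 4.12 and 4.37 CPM in NanogKO:Esrrb, against 5.32, 6.69 and 5.01 CPM in NanogKO. The NanogKO:Esrrb libraries were the lowest, and NanogKO:Esrrb:Nanog exceeded them by 0.92 ± 0.17 (adjusted p = 0.00032). Its call of -0.49 ± 0.17 in NanogKO:Esrrb compared with NanogKO (0.022) was lost without NanogKO:Esrrb replicate 1 (0.10) or NanogKO replicate 2 (0.16), and that of 0.43 ± 0.16 in NanogKO:Esrrb:Nanog compared with NanogKO (0.033) without NanogKO:Esrrb:Nanog replicate 1 or 2 or NanogKO replicate 1 or 3 (0.10 to 0.17) and under library totals (0.10). The region nearest the other end (chr4:11200557-11200739) also lies in the span of Ints8, so its assignment is uncertain; it had 4.33, 2.70 and 3.58 CPM in NanogKO:Esrrb:Nanog, 2.50, 1.71 and 2.30 CPM in NanogKO:Esrrb, against 2.66, 2.48 and 2.70 CPM in NanogKO. It was higher by 0.72 ± 0.20 in NanogKO:Esrrb:Nanog compared with NanogKO:Esrrb (0.011), a call lost without NanogKO:Esrrb replicate 2 (0.064) or NanogKO:Esrrb:Nanog replicate 1 (0.082), and without NanogKO:Esrrb:Nanog replicate 2 it was higher in NanogKO:Esrrb:Nanog than in NanogKO (0.60, 0.02).

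Ccna2, the cyclin of S phase and of the approach to mitosis, had 1 region, within the span (chr3:36571332-36572532, gene at chr3:36564865-36573038). It had 68.3, 63.7 and 55.1 CPM in NanogKO:Esrrb:Nanog, 58.0, 51.1 and 52.9 CPM in NanogKO:Esrrb, against 57.3, 50.4 and 48.6 CPM in NanogKO, and every pair of groups overlapped. Tested among regions it was called in no comparison, with 0.26 ± 0.11 in NanogKO:Esrrb:Nanog compared with NanogKO (adjusted p = 0.061). The same reads tested among gene sums gave 0.22 ± 0.07 and a call (adjusted p = 0.017).

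That difference between levels of testing, and the libraries behind it, limit what can be read from Ccna2. The gene sum lost its call under library totals (0.16, adjusted p = 0.071) and without NanogKO:Esrrb:Nanog replicate 1 (0.07), NanogKO:Esrrb:Nanog replicate 2 (0.056), NanogKO replicate 2 (0.062) or NanogKO replicate 3 (0.081). The region in turn was called in NanogKO:Esrrb:Nanog compared with NanogKO without NanogKO:Esrrb:Nanog replicate 3 (0.34, 0.01) and without NanogKO replicate 1 (0.33, 0.036), and compared with NanogKO:Esrrb without NanogKO:Esrrb:Nanog replicate 3 (0.29, 0.042). Compared with NanogKO it was also called with the replicate block (0.012) and with DESeq2's Wald test (0.043).

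Ccnb1 encodes cyclin B1, which activates CDK1 at the start of mitosis. Its 3 regions (gene at chr13:100778739-100786486) moved in opposite directions, and the sum was called in no comparison. The sum was 36.6, 45.5 and 34.4 CPM in NanogKO:Esrrb:Nanog, 37.1, 36.8 and 38.1 CPM in NanogKO:Esrrb, against 34.4, 36.1 and 34.5 CPM in NanogKO. Without NanogKO:Esrrb:Nanog replicate 3 it was higher in NanogKO:Esrrb:Nanog than in NanogKO (0.23, adjusted p = 0.027).

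The region inside Ccnb1 away from the start (chr13:100780277-100780783) had 2.61, 2.67 and 4.20 CPM in NanogKO:Esrrb:Nanog, 4.21, 4.4 and 4.66 CPM in NanogKO:Esrrb, against 7.49, 7.57 and 7.06 CPM in NanogKO. The NanogKO libraries were the highest, by a log2 fold change of -0.73 ± 0.17 in NanogKO:Esrrb (adjusted p = 0.00095) and -1.21 ± 0.17 for NanogKO:Esrrb:Nanog (1.7e-06), each compared with NanogKO. The step of -0.47 ± 0.17 between NanogKO:Esrrb:Nanog and NanogKO:Esrrb (0.048) was lost without any one of the 3 NanogKO:Esrrb replicates (0.078 to 0.13), without NanogKO:Esrrb:Nanog replicate 1 (0.21) or 2 (0.17), and with the 2 groups alone (0.072).

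Over the Ccnb1 start, whose 2 CCAAT copies are printed above, the region (chr13:100785700-100786980) had 32.1, 37.7 and 25.7 CPM in NanogKO:Esrrb:Nanog, 29.0, 25.8 and 27.7 CPM in NanogKO:Esrrb, against 25.7, 25.8 and 23.7 CPM in NanogKO. It was called higher in NanogKO:Esrrb:Nanog than in NanogKO (0.34 ± 0.12, adjusted p = 0.023), and replicate 3 of NanogKO:Esrrb:Nanog lay within the range of NanogKO. That call was lost without NanogKO:Esrrb:Nanog replicate 2 (0.20, 0.21) or NanogKO replicate 3 (0.31, 0.091) and under library totals (0.24, 0.07). Without NanogKO:Esrrb:Nanog replicate 3 the region was higher in NanogKO:Esrrb:Nanog than in NanogKO:Esrrb (0.35, 0.02). The remaining region, 2679 bp outside (chr13:100789165-100789323), was higher by 0.88 ± 0.21 in NanogKO:Esrrb (0.0018) and 1.08 ± 0.22 for NanogKO:Esrrb:Nanog (0.00015), each compared with NanogKO.

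Cdkn1a encodes p21, the inhibitor that p53 switches on after DNA damage. Its 13 regions (gene at chr17:29090979-29100722) summed to 130.3, 125.2 and 101.3 CPM in NanogKO:Esrrb:Nanog, 108.7, 109.1 and 97.2 CPM in NanogKO:Esrrb, against 99.1, 88.1 and 87.6 CPM in NanogKO. NanogKO:Esrrb:Nanog lay above NanogKO, by 0.38 ± 0.08 (adjusted p = 0.00089), and NanogKO:Esrrb overlapped both. The sum differed by 0.20 ± 0.08 in NanogKO:Esrrb compared with NanogKO (0.068) and by 0.18 ± 0.08 in NanogKO:Esrrb:Nanog compared with NanogKO:Esrrb (0.12), and with the replicate block both were called (0.011 and 0.032).

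Leaving out libraries also moved the Cdkn1a sum past the threshold. NanogKO:Esrrb was called higher than NanogKO without NanogKO:Esrrb replicate 3 (0.25, adjusted p = 0.037) or NanogKO replicate 1 (0.26, 0.037), and NanogKO:Esrrb:Nanog higher than NanogKO:Esrrb without NanogKO:Esrrb:Nanog replicate 3 (0.29, 0.0041). With regions within 10 kb alone, NanogKO:Esrrb:Nanog differed from NanogKO by 0.18 (0.074).

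Most called regions at Cdkn1a lay far before the gene. The 4 regions farthest from it, 16588 to 22250 bp before the span, were all called higher in both NanogKO:Esrrb and NanogKO:Esrrb:Nanog than in NanogKO, by 0.46 to 0.96 and by 0.80 to 1.81 on the log2 scale. Of the other 9 regions, 0 were called in NanogKO:Esrrb compared with NanogKO, and 1 in NanogKO:Esrrb:Nanog compared with NanogKO. The one of smallest p among the 4 (chr17:29072767-29073268, 17711 bp away) had 11.4, 10.0 and 9.80 CPM in NanogKO:Esrrb:Nanog, 5.60, 6.58 and 4.54 CPM in NanogKO:Esrrb, against 2.88, 2.46 and 3.59 CPM in NanogKO. Its libraries separate by group, by 0.91 ± 0.17 in NanogKO:Esrrb compared with NanogKO (0.00011), 1.81 ± 0.17 in NanogKO:Esrrb:Nanog compared with NanogKO (1.2e-09) and 0.90 ± 0.16 in NanogKO:Esrrb:Nanog compared with NanogKO:Esrrb (0.00024). The calls of 2 of the others in NanogKO:Esrrb compared with NanogKO (chr17:29069194-29069594 and chr17:29074205-29074391) were lost without NanogKO:Esrrb replicate 1 or 2 or NanogKO replicate 2, and without NanogKO replicate 1 for the one and 3 for the other (adjusted p = 0.065 to 0.17).

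The starts of Cdkn1a, printed above, differed from each other. The region at the outer start (chr17:29090829-29091036) had 7.17, 4.22 and 3.70 CPM in NanogKO:Esrrb:Nanog, 5.17, 4.74 and 5.03 CPM in NanogKO:Esrrb, against 4.80, 3.09 and 3.20 CPM in NanogKO, overlapping between all groups. It was called in no comparison, at 0.44 ± 0.21 in NanogKO:Esrrb (adjusted p = 0.099) and 0.45 ± 0.21 for NanogKO:Esrrb:Nanog (0.072) compared with NanogKO. It was called in NanogKO:Esrrb with the replicate block (0.027), in both groups without NanogKO replicate 1 (0.028 and 0.018), and in NanogKO:Esrrb:Nanog without its replicate 2 (0.048) or 3 (0.0085). The region over the inner start (chr17:29093477-29094461), the most accessible of the 13, had 33.2, 31.7 and 22.3 CPM in NanogKO:Esrrb:Nanog, 22.4, 19.2 and 18.4 CPM in NanogKO:Esrrb, against 22.9, 20.3 and 18.4 CPM in NanogKO. It was higher in NanogKO:Esrrb:Nanog than in NanogKO:Esrrb (0.54 ± 0.13, 0.0053) and than in NanogKO (0.50 ± 0.14, 0.0031), although replicate 3 of NanogKO:Esrrb:Nanog lay within the range of both, and NanogKO:Esrrb differed from NanogKO by -0.04 ± 0.14 (0.86).

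Cdkn1b encodes p27, which binds cyclin and CDK2 complexes and is removed as cells enter S phase. Its 8 regions (gene at chr6:134920401-134925525) summed to 103.7, 108.1 and 83.3 CPM in NanogKO:Esrrb:Nanog, 107.0, 102.0 and 96.5 CPM in NanogKO:Esrrb, against 98.8, 98.8 and 89.4 CPM in NanogKO, with overlap throughout, and the sum was called in no comparison. The start region (chr6:134919569-134921473), the most accessible, had 50.4, 52.0 and 38.0 CPM in NanogKO:Esrrb:Nanog, 47.3, 43.5 and 42.8 CPM in NanogKO:Esrrb, against 53.0, 48.7 and 40.2 CPM in NanogKO. Its log2 fold changes were -0.09 ± 0.13 in NanogKO:Esrrb (adjusted p = 0.62) and -0.02 ± 0.13 for NanogKO:Esrrb:Nanog (0.93), each compared with NanogKO.

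A region 13103 bp beyond Cdkn1b (chr6:134938628-134939025) changed more than any other at this gene. It had 6.05, 4.99 and 6.24 CPM in NanogKO:Esrrb:Nanog, 4.23, 4.39 and 3.25 CPM in NanogKO:Esrrb, against 1.00, 1.38 and 1.46 CPM in NanogKO, with no overlap between groups. It was higher by 1.62 ± 0.20 in NanogKO:Esrrb (adjusted p = 2.7e-07) and 2.16 ± 0.20 for NanogKO:Esrrb:Nanog (7.4e-10), each compared with NanogKO. The step of 0.55 ± 0.18 between NanogKO:Esrrb:Nanog and NanogKO:Esrrb (0.025) was lost without NanogKO:Esrrb replicate 3 (0.14), NanogKO:Esrrb:Nanog replicate 1 (0.077) or NanogKO:Esrrb:Nanog replicate 3 (0.05), and under library totals (0.45, 0.075).

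Another Cdkn1b region, 4473 bp outside (chr6:134929998-134930306), was lowest in NanogKO:Esrrb:Nanog. It had 1.93, 1.94 and 1.45 CPM in NanogKO:Esrrb:Nanog, 2.98, 3.35 and 2.59 CPM in NanogKO:Esrrb, against 3.51, 3.31 and 3.47 CPM in NanogKO. It was lower in NanogKO:Esrrb:Nanog than in NanogKO:Esrrb (-0.76 ± 0.19, adjusted p = 0.0059) and than in NanogKO (-0.96 ± 0.19, 0.00017), and NanogKO:Esrrb differed from NanogKO by -0.20 ± 0.18 (0.41).

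Cdkn2a encodes both p16, an inhibitor of CDK4 and CDK6, and p19ARF, which stabilises p53. Every called region was lower, 4 of 8 in NanogKO:Esrrb compared with NanogKO, 3 in NanogKO:Esrrb:Nanog compared with NanogKO and 1 in NanogKO:Esrrb:Nanog compared with NanogKO:Esrrb. Of all regions, 17%, 24.4% and 12% were lower in these comparisons. In NanogKO:Esrrb compared with NanogKO, 3 of the 4 calls were lost on leaving out some single libraries. They are that over the inner start, given below, that of the region starting at chr4:89274841 without NanogKO:Esrrb replicate 1 or NanogKO replicate 2 or 3 (adjusted p = 0.065 to 0.12), and that at chr4:89295458 without NanogKO:Esrrb replicate 1 or 2 or NanogKO replicate 1 or 2 (0.055 to 0.076). The region at chr4:89274841 was lower in NanogKO:Esrrb:Nanog than in NanogKO too, a call lost without NanogKO:Esrrb:Nanog replicate 3 or NanogKO replicate 2 or 3 (0.059 to 0.092). All 8 regions summed to 68.5, 70.7 and 63.0 CPM in NanogKO:Esrrb:Nanog, 62.0, 61.7 and 65.6 CPM in NanogKO:Esrrb, against 69.0, 77.5 and 69.9 CPM in NanogKO (gene at chr4:89274473-89294619). NanogKO:Esrrb lay below NanogKO, by -0.19 ± 0.07 (adjusted p = 0.032), and NanogKO:Esrrb:Nanog overlapped both groups, differing from NanogKO by -0.10 ± 0.07 (0.23). The call was lost without NanogKO:Esrrb replicate 1 (0.11) or 2 (0.10), without NanogKO replicate 2 (0.18), and with regions within 10 kb alone (0.08).

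Both starts of Cdkn2a lie in open regions. The one over the outer start, with the E2F form printed above (chr4:89294254-89295309), was the most accessible and had 40.4, 36.6 and 27.7 CPM in NanogKO:Esrrb:Nanog, 28.4, 27.8 and 29.8 CPM in NanogKO:Esrrb, against 31.4, 31.5 and 27.0 CPM in NanogKO. It was called in no comparison, with 0.22 ± 0.12 in NanogKO:Esrrb:Nanog compared with NanogKO (adjusted p = 0.15). Without NanogKO:Esrrb:Nanog replicate 3 it was higher in NanogKO:Esrrb:Nanog than in NanogKO (0.36, 0.0075) and than in NanogKO:Esrrb (0.43, 0.0044). The region over the inner start (chr4:89281974-89282572) had 9.66, 8.77 and 6.57 CPM in NanogKO:Esrrb:Nanog, 7.39, 5.49 and 6.47 CPM in NanogKO:Esrrb, against 7.68, 8.96 and 8.84 CPM in NanogKO. It was lower in NanogKO:Esrrb than in NanogKO (-0.40 ± 0.15, 0.041), a call lost without NanogKO:Esrrb replicate 2 or 3 or NanogKO replicate 2 or 3 (0.08 to 0.19), and without NanogKO:Esrrb:Nanog replicate 3 it was higher in NanogKO:Esrrb:Nanog than in NanogKO:Esrrb (0.52, 0.0095).

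Away from the starts, a region 20024 bp from Cdkn2a (chr4:89253911-89254449) had 3.40, 3.11 and 3.91 CPM in NanogKO:Esrrb:Nanog, 4.15, 3.22 and 3.86 CPM in NanogKO:Esrrb, against 5.61, 7.15 and 5.13 CPM in NanogKO. The NanogKO libraries were above all others, with log2 fold changes of -0.68 ± 0.17 in NanogKO:Esrrb (adjusted p = 0.0023) and -0.77 ± 0.17 for NanogKO:Esrrb:Nanog (0.00049). The farthest region of the set, 39633 bp from Cdkn2a (chr4:89234485-89234840), had 0.581, 0.645 and 1.12 CPM in NanogKO:Esrrb:Nanog, 1.89, 1.89 and 1.55 CPM in NanogKO:Esrrb, against 1.78, 1.86 and 1.84 CPM in NanogKO. Only the NanogKO:Esrrb:Nanog libraries were low, by -1.15 ± 0.25 compared with NanogKO:Esrrb (0.002) and -1.19 ± 0.25 compared with NanogKO (0.00035). It is also the region just inside the limit of 50 kb. Just outside it, at 70215 bp, lies a region nearest to Ccnd1 (chr7:145010046-145010709), with 1.95, 2.41 and 2.65 CPM in NanogKO:Esrrb:Nanog, 1.75, 1.78 and 1.79 CPM in NanogKO:Esrrb, against 3.41, 2.50 and 3.89 CPM in NanogKO; 16 regions nearest to these genes lay beyond 50 kb.

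**Figure D4:**
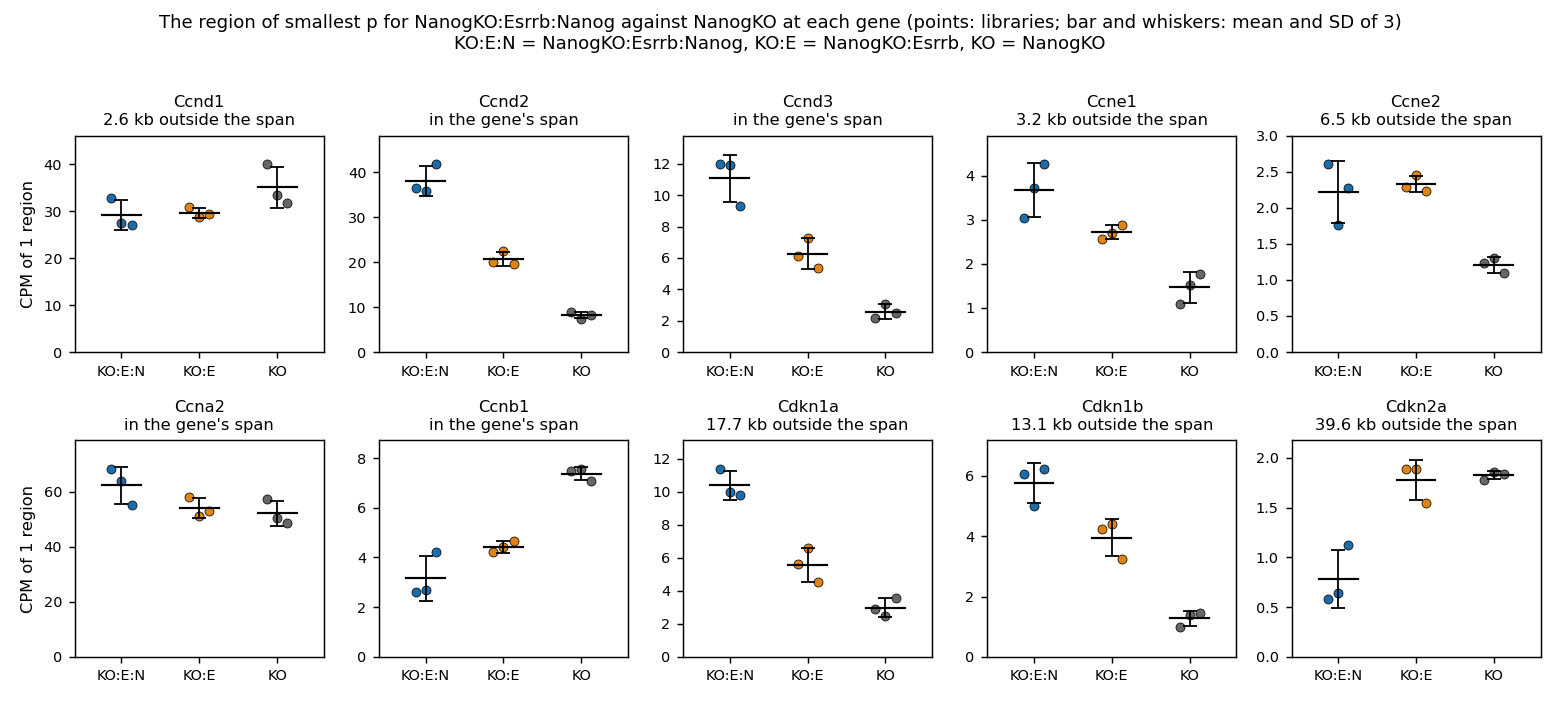
CPM per library (points), with mean and SD of 3 libraries (bar and whiskers), of the region of smallest p in NanogKO:Esrrb:Nanog compared with NanogKO at each gene, on vertical axes from 0. The regions of Ccnd2, Ccnd3, Cdkn1a and Cdkn1b are highest in NanogKO:Esrrb:Nanog and lowest in NanogKO, that of Ccnb1 is lowest in NanogKO:Esrrb:Nanog and highest in NanogKO, and those of Ccnd1 and Ccna2 were not called; all were picked by their p, so the plot shows values and supports nothing.

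By family, the D-type cyclins held 15 of the 25 and 21 of the 35 regions higher than in NanogKO. All of these were at Ccnd2 and Ccnd3, whereas Ccnd1 had 0 higher in either comparison and 1 lower in NanogKO:Esrrb. The D-type cyclins had 45 regions, with 15 called higher and 3 lower in NanogKO:Esrrb compared with NanogKO (33.3% and 6.67%, beside 20% and 17% of all regions), and 21 were higher and 2 lower in NanogKO:Esrrb:Nanog than in NanogKO (46.7% and 4.44%, beside 24.9% and 24.4%). The E-type, A-type and B-type cyclins had 4 higher and 5 lower of 25 in NanogKO:Esrrb, and 7 and 7 for NanogKO:Esrrb:Nanog, each compared with NanogKO, with median log2 fold changes of 0.00 and 0.07. Their shares were 16.0% and 20.0% in NanogKO:Esrrb, and 28.0% and 28.0% for NanogKO:Esrrb:Nanog. The inhibitors had 6 higher and 4 lower of 29 in NanogKO:Esrrb, and 7 and 4 for NanogKO:Esrrb:Nanog, each compared with NanogKO, with medians of -0.03 and 0.08. Here the shares higher, 20.7% and 24.1%, were near those of all regions, and the shares lower were 13.8% in both. Differences between these families were not tested. Of all 99 regions, 66 lay in all 3 of the authors' peak lists (66.7%), beside 55.3% of all regions. The intervals of the NanogKO:Esrrb:Nanog list carry peak names of a NanogKO:Esrrb library alone, so how that list was intersected is uncertain.

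Other genes of the cell cycle, 59 in all with 477 regions, had shares of higher regions nearer to those of all regions than the 10 genes had. Their shares of lower regions lay below those of all regions, as at the 10 genes. In NanogKO:Esrrb compared with NanogKO, 96 regions were called higher and 52 lower (20.1% and 10.9%, beside 20% and 17% of all regions). In NanogKO:Esrrb:Nanog compared with NanogKO there were 134 and 73 (28.1% and 15.3%, beside 24.9% and 24.4%). In NanogKO:Esrrb:Nanog compared with NanogKO:Esrrb there were 68 and 38 (14.3% and 7.97%, beside 12.6% and 12%). Genes of the retinoblastoma family, E2F and their partners had 40 higher and 8 lower of 140 in NanogKO:Esrrb (28.6% and 5.71%) and 50 and 11 for NanogKO:Esrrb:Nanog (35.7% and 7.86%), each compared with NanogKO. These shares higher were near those of the 10 genes, 25.3% and 35.4%. The other inhibitors, Cdkn1c, Cdkn2b, Cdkn2c and Cdkn2d, had 0 higher and 6 lower of 19 in NanogKO:Esrrb (0% and 31.6%) and 1 and 6 for NanogKO:Esrrb:Nanog (5.26% and 31.6%). Kinases and phosphatases had 12 higher and 18 lower of 114 in NanogKO:Esrrb (10.5% and 15.8%) and 20 and 22 for NanogKO:Esrrb:Nanog (17.5% and 19.3%). The other cyclins had 10 higher and 7 lower of 46 in NanogKO:Esrrb (21.7% and 15.2%) and 13 and 11 for NanogKO:Esrrb:Nanog (28.3% and 23.9%). For ubiquitin ligases and other regulators of turnover the counts were 19 and 10 of 91 in NanogKO:Esrrb (20.9% and 11%). In NanogKO:Esrrb:Nanog they were 24 and 18 (26.4% and 19.8%). Regulators of the inhibitors had 15 and 3 of 67 in NanogKO:Esrrb (22.4% and 4.48%) and 26 and 5 for NanogKO:Esrrb:Nanog (38.8% and 7.46%). Their 38.8% higher was above the 35.4% of the 10 genes, and their 22.4% was below the 25.3%. Differences between these lists were not tested.

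Among the sums of those 59 genes, 10 were called higher and 5 lower in NanogKO:Esrrb compared with NanogKO (16.9% and 8.47%, beside 17.2% and 16.5% of all gene sums), 22 and 8 in NanogKO:Esrrb:Nanog compared with NanogKO (37.3% and 13.6%, beside 23.9% and 23.9%), and 6 and 4 in NanogKO:Esrrb:Nanog compared with NanogKO:Esrrb (10.2% and 6.78%, beside 10.4% and 10%). Ccnb3, a cyclin of meiosis with 1 region, had 0.275, 0.174 and 0.481 CPM in NanogKO:Esrrb:Nanog, 0.919, 0.446 and 1.00 CPM in NanogKO:Esrrb, against 6.44, 6.89 and 4.90 CPM in NanogKO. It was lower in both groups with Esrrb, by log2 fold changes of -2.95 ± 0.27 in NanogKO:Esrrb (adjusted p = 1.9e-07) and -4.20 ± 0.31 for NanogKO:Esrrb:Nanog (6.2e-09), each compared with NanogKO. Cdc20, an activator of the anaphase-promoting complex, was higher by 0.79 ± 0.07 in NanogKO:Esrrb (1.3e-07) and 0.72 ± 0.07 for NanogKO:Esrrb:Nanog (1.6e-07), and Mybl2, a transcription factor of proliferating cells, by 0.68 ± 0.07 (4e-07) and 0.58 ± 0.07 (1.1e-06), each compared with NanogKO. The smallest p in NanogKO:Esrrb:Nanog compared with NanogKO:Esrrb belonged to E2f8, an E2F repressor (0.53 ± 0.07, 0.00015), Ccnc, the cyclin of the Mediator kinase module (0.32 ± 0.05, 0.00067), and Plk1, a mitotic kinase (-0.27 ± 0.07, 0.014).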

How the data were processed

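The authors deposited a table of raw read counts, not normalized, with 157497 regions and 9 libraries. The score of a peak in the authors' deposited lists is their peak caller's and was not used, only the intervals. The submitters' processing notes give mm10 as the build. They list, with no role for any, MACS2 2.2.0, Bowtie2, bedtools 2.26.0, cutadapt, SAMtools 1.4.1, bcl2fastq 2.19.1 and deepTools 4.4.0. The counting tool, duplicate removal and any shift of reads for the transposase are not given in the sources used here.

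Each region was given the protein-coding gene whose span was closest in RefSeq's table for GRCm38.p6, which shares its coordinates with mm10. A gene lay within 50 kb for 85.1% of regions. Strand is not in the table, so where no promoter was at hand the ends of a span are named by coordinate. Overlap with peak lists needed 1 base or more. Counts of 157439 regions and of 19083 gene sums were fitted with edgeR 4.0.16 in R 4.3.3 (TMM, filterByExpr, group means of all 9 libraries, quasi-likelihood F test, 6 residual degrees of freedom). Standard errors were derived from the fold change and its F value. The fits were tested on simulated data. DESeq2 1.42.0 was an alternative, with other scalings, no filter, 2 groups alone, the replicate block, regions within 10 kb and each replicate left out. Leaving out Ccnd3 was added after seeing the data. Counting depth limits the precision of small regions: the median region had 96 to 175 reads per library, and members were 441 bp long at the median, beside 345 bp for all regions.

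The genes and all lists were chosen with earlier results of these data known. For each gene the text names the most accessible region, the region at each start (or at the ends of the span) and the region of smallest p in each comparison, and says where others were named after their values were seen. Same-numbered libraries correlated in their deviations from group means at 0.117 to 0.152 between NanogKO:Esrrb and NanogKO and at 0.105 to 0.146 between NanogKO:Esrrb:Nanog and NanogKO:Esrrb, and were taken to pair there. Between NanogKO:Esrrb:Nanog and NanogKO they correlated at 0.002 to 0.136 and were not. The pairing rests on these values, taken from the same data, since the labels give no shared culture or day. Numbers that pair in both of those comparisons would also pair in the remaining one, so the pairing is unsettled. The block was fitted over all 9 libraries and all 3 groups at once, so its calls are given as an alternative only. Chi-square per region between libraries of a group was 3.55 to 9.49, so none was a copy of another.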

Additional observations from a re-analysis of the deposited data

How the results depend on the processing

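Over 12 alternatives, 21 of 37 called regions kept their call in NanogKO:Esrrb compared with NanogKO, 35 of 48 in NanogKO:Esrrb:Nanog compared with NanogKO and 15 of 25 in NanogKO:Esrrb:Nanog compared with NanogKO:Esrrb, and 5, 15 and 23 others were called under at least 1 alternative. Leaving out 1 replicate gave 19 to 23 higher and 6 to 9 lower regions in NanogKO:Esrrb compared with NanogKO, 31 to 45 and 9 to 13 in NanogKO:Esrrb:Nanog compared with NanogKO, and 13 to 29 and 4 to 12 in NanogKO:Esrrb:Nanog compared with NanogKO:Esrrb, with 2 to 4, 3 to 6 and 1 to 3 gene sums called. The lowest count of 6 came without NanogKO:Esrrb replicate 1 or NanogKO replicate 2, and 29, 12 and 3 came without NanogKO:Esrrb:Nanog replicate 3. Without Ccnd3 the counts were 12 higher in NanogKO:Esrrb and 22 in NanogKO:Esrrb:Nanog, each compared with NanogKO, and 11 higher and 4 lower in NanogKO:Esrrb:Nanog compared with NanogKO:Esrrb. Regions within 10 kb gave 5 lower in NanogKO:Esrrb:Nanog compared with NanogKO, and library totals 12 lower in NanogKO:Esrrb:Nanog compared with NanogKO:Esrrb. Gene sums called in NanogKO:Esrrb compared with NanogKO numbered 5 with the 2 groups alone and 5 with the replicate block. In NanogKO:Esrrb:Nanog compared with NanogKO:Esrrb they numbered 2 with DESeq2's size factors, 2 with its Wald test and 3 with the replicate block, which otherwise removed no call of a region or gene sum. Regions within 10 kb turned the sum of Ccne1 round, to 0.26 in NanogKO:Esrrb and 0.27 in NanogKO:Esrrb:Nanog, each compared with NanogKO; the cause was not tested. Regions under 1 CPM rest on few reads, and small differences there were not detectable at this depth.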
